A study of Mus musculus with 20 samples.

Results

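The respiratory chain genes described here are nuclear genes for subunits and assembly factors of complexes I to V of the mitochondrial inner membrane. A probe set was taken when the array annotation tied it to a single gene whose symbol starts with Nduf, Uqcr, Cox4 to Cox8 or Atp5, or is Sdha, Sdhb, Sdhc, Sdhd or Cyc1. This gave 100 probe sets of 72 genes, out of 10833 probe sets of 8251 genes with a single symbol. Complex I had 42 probe sets of 31 genes, complex II 4 of 4, complex III 9 of 8, complex IV 23 of 15 and complex V 22 of 14. The cells were LβT2, a mouse gonadotrope line from a pituitary tumour, grown on microcarrier beads and perifused for 4 h in serum-free medium before total RNA was taken. Unstimulated cells received no gonadotropin-releasing hormone (GnRH), the hypothalamic signal to the gonadotropes. The other cells received 1, 2, 4 or 8 pulses of GnRH, each lasting 2 min, or an uninterrupted (tonic) exposure, at 100 nM. The 10 nM groups were those of 1, 4 and 8 pulses and tonic exposure. Intervals were 118 min for 2 pulses, 58 min for 4 and 28 min for 8. Each of the 10 groups had 2 arrays, told apart by a letter in the sample code, which was A or D for the unstimulated and 100 nM arrays and B or C for the 10 nM arrays. The letter and the dose therefore cannot be told apart, and this holds for every comparison of 10 nM with 100 nM or with unstimulated cells.

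Complexes I and II pass electrons from NADH and succinate to ubiquinone, complex III passes them to cytochrome c, and complex IV passes them to oxygen. Complexes I, III and IV pump protons across the inner membrane, and complex V, the ATP synthase, uses the return flow to make ATP. Most subunits are encoded in the nucleus, and their transcription in many tissues is associated with the factors NRF1, GABPA (an ETS factor), YY1 and the oestrogen-related receptors (ERR).

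Array signals had been scaled by the authors to one trimmed mean, 2501.25 to 2501.75 over the 20 arrays, and it is their number that limits precision. Arrays of one group correlated at 0.963 to 0.981, and the respiratory chain probe sets differed between them by a median of 0.135 to 0.315 on the log2 scale. The ratio of the 3′ to the 5′ probe set of Gapdh, a sign of RNA integrity, was 1.69 on the A array of 8 pulses at 100 nM and 1.21 and 1.23 on the arrays of 4 pulses at 100 nM, against 0.9 to 1.08 elsewhere. Groups follow the sample titles, which another label field contradicts in 8 of 20 samples. Of 7 gonadotrope markers 6 passed the signal filter, while Fshb, at 167 to 452, did not. Of the markers of other cells Gh, Prl, Crhr1, Cd68, Col1a1, Pecam1, Alb and Myh6 also had a probe set past the filter. Pomc (78.7 to 317), Tshb (31.7 to 203) and Ptprc (4.42 to 125 over its probe sets) did not. Cd68 and Col1a1, like Gnrhr, Nr5a1 and Nr0b1, also had a probe set under the filter. The part of other cells in the results was not tested. Nothing says that the 2 arrays of a group came from separate cultures, so a p-value weighs a difference against the spread of these samples alone, which may be technical. In such bulk samples fewer cells and less RNA per cell cannot be told apart.

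Promoters are shown for 4 genes on which the results below turn, as the transcripts of each pair belong to one complex. In complex II the Sdha signal fell with 100 nM GnRH and the Sdhb signal did not pass the test against unstimulated cells, and in complex IV both Cox7a2 and Cox6a1 rose under some patterns. The sequences are the 250 bases before the RefSeq start site on build GRCm38.p6, written 5′ to 3′ on the strand of the gene. They lie at chr13:74350241-74350490 (minus strand) for Sdha, chr4:140961021-140961270 (plus strand) for Sdhb, chr9:79759854-79760103 (minus strand) for Cox7a2 and chr5:115348959-115349208 (minus strand) for Cox6a1. Capitals mark matches to the letters GCGCATGC (NRF1) and CCGGAAG (ETS) on either strand.
Sdha: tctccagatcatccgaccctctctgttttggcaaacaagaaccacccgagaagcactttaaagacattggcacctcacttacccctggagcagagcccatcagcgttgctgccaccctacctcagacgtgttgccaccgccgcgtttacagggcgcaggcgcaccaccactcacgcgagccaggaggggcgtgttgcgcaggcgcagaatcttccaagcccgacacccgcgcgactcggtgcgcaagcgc
Sdhb: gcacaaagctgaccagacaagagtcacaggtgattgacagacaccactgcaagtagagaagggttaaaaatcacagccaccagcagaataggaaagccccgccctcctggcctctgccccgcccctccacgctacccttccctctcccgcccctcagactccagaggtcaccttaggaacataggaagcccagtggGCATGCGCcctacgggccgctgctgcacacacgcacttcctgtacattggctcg
Cox7a2: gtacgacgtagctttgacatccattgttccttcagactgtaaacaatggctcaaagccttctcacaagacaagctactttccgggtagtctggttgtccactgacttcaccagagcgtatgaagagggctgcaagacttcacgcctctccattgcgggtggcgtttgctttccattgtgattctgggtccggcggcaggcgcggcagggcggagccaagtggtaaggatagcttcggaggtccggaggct
Cox6a1: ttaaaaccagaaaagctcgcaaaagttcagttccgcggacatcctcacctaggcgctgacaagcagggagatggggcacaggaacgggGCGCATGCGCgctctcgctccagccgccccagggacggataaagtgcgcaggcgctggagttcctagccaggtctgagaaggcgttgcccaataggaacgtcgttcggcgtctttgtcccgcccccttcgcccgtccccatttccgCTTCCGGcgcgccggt
The Sdhb promoter held the NRF1 letters on the opposite strand, first base at position -54 from the start site, and the ETS letters on the same strand at position 7 after the start, beyond the bases printed. In Cox6a1 the NRF1 letters stood on both strands at -162 and -160, overlapping each other, and the ETS letters stood on the opposite strand at -16. The windows shown for Sdha and Cox7a2 held neither, nor the YY1 letters AAGATGGC or the ERR letters AAGGTCA. A promoter was in the table for 58 of the 72 genes (63 promoters, each searched on both strands from 250 bases before to 50 after the start). The NRF1 letters were in 15.9% of these, against 2.71% of all 32851 promoters of that length, and the ETS letters in 25.4% against 8.86%. The YY1 letters were in 12.7% against 2.75% and the ERR letters in 7.94% against 4.72%. These are letter matches, a description of the promoters and not of binding.

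Of the 100 probe sets, 82 (68 genes) passed the filter on low signal and were tested. The 18 others included all probe sets of Ndufa12, Cox5a, Cox6b2 and Cox8a. Of the 18, a Cox6b2 probe set (highest signal 462) and a Cox8b probe set (444) passed the filter value of 427 on 1 array each, and the other 16 on none. Changes are differences of log2(signal + 166.8) ± standard error from limma (2 arrays a group), and a probe set is said to have risen or fallen where the adjusted p was under 0.05. Over all 100 nM patterns against unstimulated, 2 probe sets rose and 4 fell, 6 of 82 beside 14.2% of all 8491 probe sets tested (6.37% higher, 7.84% lower). Their median difference was 0.06, against -0.05 for all probe sets. Over all 10 nM patterns limma called 0 of 82 (1.91% of all), with a median of 0.20 against -0.05. At an unadjusted p under 0.05 stood 15 of the 82, beside 1517 of all 8491. The smallest p of each complex at 10 nM belonged to Ndufs1 (-0.36), Sdha (-0.40), Uqcr11 (0.41), Cox7a2 (0.36) and Atp5k (0.46), with adjusted p from 0.113 to 0.15. A few subunits passed in each direction over all 100 nM patterns. The other 76 probe sets did not pass there, which does not show that they were unchanged. Some of them passed in single patterns, given below.

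**Figure D1:**
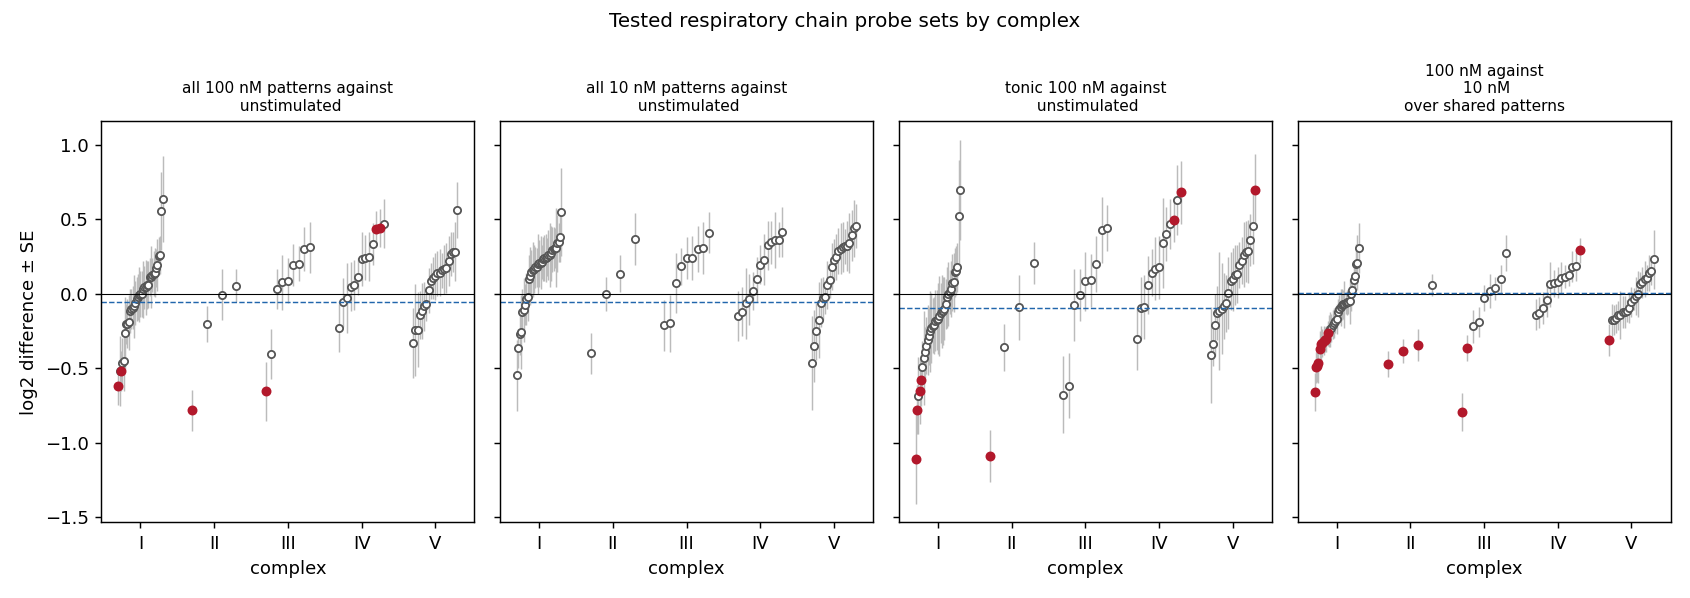
Log2 difference ± standard error (vertical axis) of each of the 82 tested probe sets, sorted within complexes I to V, in 4 comparisons. Filled red points passed an adjusted p of 0.05 and the dashed line is the median of all 8491 probe sets. The 6 filled points of the first panel are 4 below and 2 above zero, and the second panel has 0.

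By pattern, limma called 0 respiratory chain probe sets after 1 pulse at 100 nM (0% of all) and 0 after 2 pulses (0.624% of all). At an unadjusted p under 0.05 stood 6 and 3 of the 82, beside 664 and 773 of all 8491. After 4 pulses at 100 nM 7 rose and 4 fell (14.9% of all probe sets called, 6.22% higher and 8.72% lower). After 8 pulses 0 rose and 6 fell (14.3% of all, 6.55% higher and 7.76% lower), and under tonic 100 nM 3 rose and 5 fell (20.4% of all, 8.59% higher and 11.8% lower). At 10 nM the count was 0 after 1 pulse (0% of all), 0 after 4 pulses (0.0589%) and 0 after 8 pulses (2.23%). At an unadjusted p under 0.05 stood 13, 31 and 3 of the 82 in these, beside 708, 1109 and 1238 of all 8491. Under tonic 10 nM Cox6a2 rose and Ndufs1 fell (7.41% of all, 3.89% higher and 3.52% lower). In this fit, with both directions together, the share of the 82 called was below that of all probe sets in each comparison, or 0 were called. After 4 pulses at 100 nM the rises, 7 of 82 with 4 in complex IV, were a slightly larger share than the 6.22% of all. The falls there, 4 of 82, were a smaller share than the 8.72% of all. Both directions together gave 13.4% of the 82 beside 14.9% of all, and these differences in share were not tested. With the letter as a replicate block 21 of 82 passed after 4 pulses at 100 nM beside 23.1% of all, and 3 after 4 pulses at 10 nM beside 1.45%. In both of these the share of the 82 was above that of all. With the block 3 passed over all 10 nM patterns beside 8.23% and 4 under tonic 10 nM beside 14% of all. Leaving out single arrays moved these counts. A fit with 1 array fewer has less precision for every probe set, and the share of all called in such fits is not given here or below. These moves therefore cannot be read as particular to the respiratory chain. Without the unstimulated D array 1 was called over all 100 nM patterns and 3 after 4 pulses, 2 after 8 pulses and 5 under tonic 100 nM. Without the unstimulated A array the counts were 3 over all 100 nM patterns, 3 after 8 pulses, 3 under tonic 100 nM and 0 under tonic 10 nM, and 1 was called after 4 pulses at 10 nM. Without a group's own array the count was 1 after 4 pulses (D left out), 1 after 8 pulses (A), 5 or 4 under tonic 100 nM (A or D) and 0 or 1 under tonic 10 nM (B or C). Without the 3 arrays of high Gapdh ratio, a setting chosen after seeing the data, 3 were called over all 100 nM patterns (11.5% of all), 2 after 8 pulses (8.55%) and 12 under tonic 100 nM (22.6%). Both arrays of 4 pulses at 100 nM are among these 3, so the rises of that group could not be set against this setting. Without them the pooled 100 nM comparison, the trend and the comparison of doses no longer include 4 pulses, here and below. A change under this setting therefore mixes the loss of that group with the loss of arrays of high ratio.

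**Figure D2:**
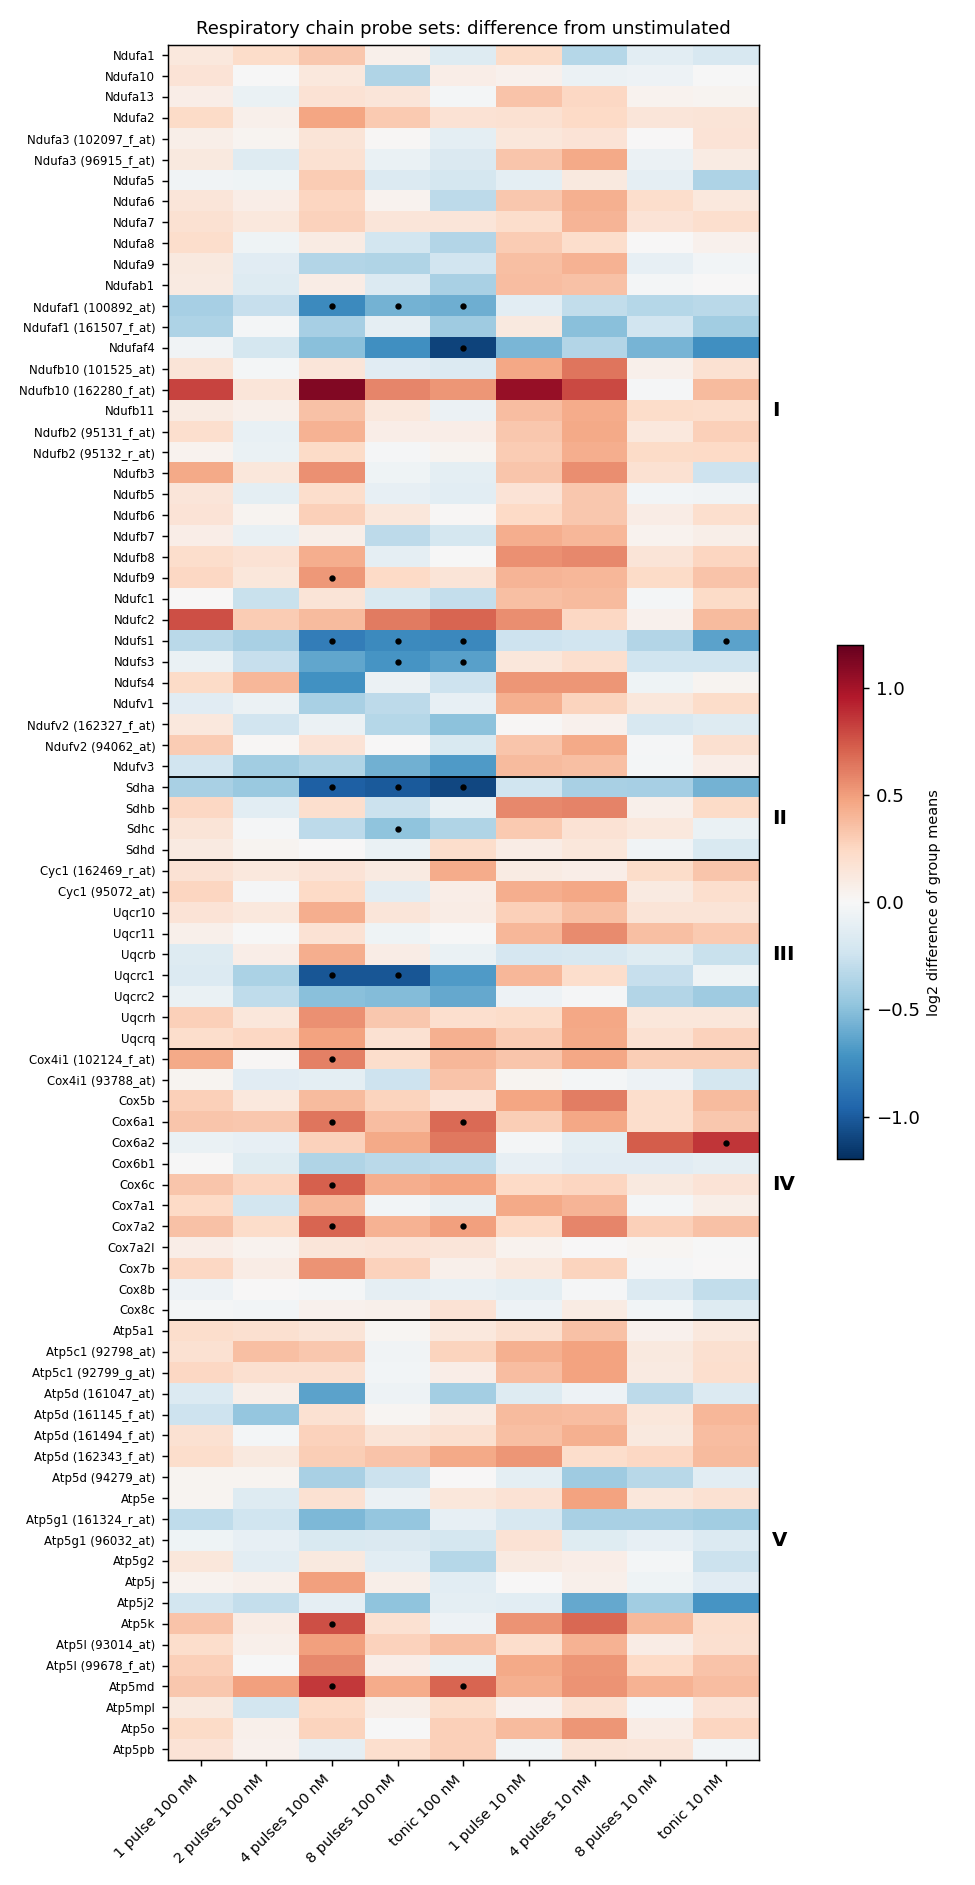
Difference from unstimulated, on the log2 scale, of each tested probe set (rows, by complex I to V) in each of the 9 GnRH groups (columns). Dots mark an adjusted p under 0.05. Sdha is blue in every column, and the dots of complex IV lie on red cells.

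The scaling between arrays decided how many of the calls were rises. With quantile normalisation 0 rose and 7 fell over all 100 nM patterns (13.2% of all called), 3 rose and 6 fell after 4 pulses (12.1%), and 2 rose and 12 fell under tonic 100 nM (18.8%). With array medians set equal 2 rose and 3 fell over all 100 nM patterns (11.6% of all called), 4 rose and 4 fell after 4 pulses (11.9%), and 4 rose and 3 fell under tonic 100 nM (17.5%). The median of the 82 over all 100 nM patterns was -0.08 with quantile normalisation and 0.09 with equal medians, so no direction is given for the chain as a whole. At 10 nM the median over all patterns was 0.06 and 0.29 under these scalings. The one scaling that moved the median of all probe sets by over 0.1 was equal medians for 4 pulses at 10 nM, by 0.11.

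In complex I the subunit Ndufs1 and the assembly factor Ndufaf1 fell with 100 nM GnRH. Ndufs1 is an iron-sulfur subunit that carries electrons toward ubiquinone. Its signal was 10800 and 10600 in unstimulated cells (A and D) and, at 100 nM, 8980 and 8060 after 1 pulse, 7750 and 8430 after 2, 6510 and 5360 after 4, 5790 and 6670 after 8, and 6240 and 6060 under tonic GnRH. All 10 arrays at 100 nM lay below both unstimulated arrays. At 10 nM (B and C) it was 8570 and 9390 after 1 pulse, 10400 and 7970 after 4, 9150 and 7570 after 8, and 6320 and 7280 under tonic GnRH, again all 8 below unstimulated. Ndufs1 fell by 0.62 ± 0.13 over all 100 nM patterns (0.652 of unstimulated, adjusted p = 0.00349), by 0.83 ± 0.16 after 4 pulses, by 0.76 ± 0.16 after 8 and by 0.78 ± 0.16 under tonic 100 nM (adjusted p = 0.0025). The fall of 0.64 ± 0.16 under tonic 10 nM also passed (adjusted p = 0.0238), while the difference over all 10 nM patterns was -0.36 ± 0.13 (adjusted p = 0.15). The call over all 100 nM patterns was lost without unstimulated A (adjusted p = 0.0543) or D (0.0536), that after 4 pulses without its own D array (0.0719), that after 8 without its own A array (0.0503), and that under tonic 10 nM without either unstimulated array (0.121 and 0.0919) or its own B array (0.209). The tonic 100 nM call was kept whichever array was left out.

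Ndufaf1, needed to assemble the membrane arm of complex I, has 2 probe sets. On 100892_at its signal was 4510 and 4490 in unstimulated cells, 3440 and 3340 after 1 pulse at 100 nM, 3820 and 3570 after 2, 2920 and 2280 after 4, 2590 and 3420 after 8, and 2660 and 3270 under tonic 100 nM. At 10 nM it ran from 3380 to 4220, so all 18 stimulated arrays lay below both unstimulated ones. It fell by 0.52 ± 0.13 over all 100 nM patterns (adjusted p = 0.013), by 0.77 ± 0.17 after 4 pulses, by 0.57 ± 0.17 after 8 and by 0.58 ± 0.17 under tonic GnRH. On 161507_f_at the difference over all 100 nM patterns was -0.27 ± 0.24 (adjusted p = 0.514). The 100892_at call over all patterns was lost without unstimulated A (adjusted p = 0.108) or D (0.121), that after 4 pulses without its own D array (0.123), and those after 8 pulses and under tonic GnRH without their own A array (0.259 and 0.177) or either unstimulated array (0.111 and 0.123, 0.0873 and 0.0828). Both were also lost with quantile normalisation (0.0685 and 0.0717) and equal array medians (0.0974 and 0.0774), and that after 8 pulses without the arrays of high Gapdh ratio (0.235).

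Ndufaf4, another assembly factor, was 3190 and 1900 in unstimulated cells and 1220 and 912 under tonic 100 nM. The unstimulated pair differed widely, and both tonic arrays lay below it. The fall of 1.11 ± 0.30 had an adjusted p of 0.0139, and was lost without unstimulated A (0.173) or tonic D (0.117). Ndufs3, a core subunit of the arm that binds ubiquinone, was 28400 and 27500 in unstimulated cells, 12800 and 22800 after 8 pulses and 16000 and 19600 under tonic 100 nM. It fell by 0.71 ± 0.22 after 8 pulses (adjusted p = 0.0385) and by 0.65 ± 0.22 under tonic GnRH (adjusted p = 0.0427). The first was lost without its own A array (difference -0.29, adjusted p = 0.454) or either unstimulated array (0.139 and 0.129), and the other under 13 of 28 settings, among them leaving out either of its own arrays or either unstimulated array. Ndufb9, an accessory subunit, was 26000 and 23900 in unstimulated cells and higher on all 18 other arrays, from 26400 to 39300. It rose only after 4 pulses at 100 nM (0.52 ± 0.17, adjusted p = 0.0436), a call lost under 11 of 27 settings, quantile normalisation (adjusted p = 0.296) and leaving out the own D array (0.331) or either unstimulated array (0.092 and 0.21) among them. Ndufv2, an iron-sulfur subunit beside the flavin site, differed by 0.06 ± 0.16 over all 100 nM patterns (94062_at, adjusted p = 0.843) and by -0.20 ± 0.13 on its other probe set (162327_f_at, adjusted p = 0.341). In complex I as a whole 0 of 35 probe sets rose and 2 fell over all 100 nM patterns.

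Complex II held the largest fall relative to its standard error among the 82 over all 100 nM patterns, that of Sdha. Sdha encodes the flavoprotein that oxidises succinate and is shared by the respiratory chain and the citric acid cycle. Its signal was 2070 and 2130 in unstimulated cells and, at 100 nM, 1480 and 1650 after 1 pulse, 1470 and 1530 after 2, 1090 and 879 after 4, 888 and 1030 after 8, and 840 and 961 under tonic GnRH. At 10 nM it was 1740 and 1770 after 1 pulse, 1770 and 1370 after 4, 1520 and 1590 after 8, and 1360 and 1370 under tonic GnRH. All 18 stimulated arrays lay below both unstimulated ones, and the arrays of 4 pulses, 8 pulses and tonic GnRH at 100 nM lay below all others. Sdha fell by 0.78 ± 0.14 over all 100 nM patterns (0.581 of unstimulated, adjusted p = 0.000916), by 0.98 ± 0.17 after 4 pulses (adjusted p = 0.00153), by 1.01 ± 0.17 after 8 (adjusted p = 0.000818) and by 1.09 ± 0.17 under tonic GnRH (0.47 of unstimulated, adjusted p = 0.000245). These 4 calls were kept under each alternative, single arrays left out included, other than groups taken from the contradicting label field. After 1 and 2 pulses the differences were -0.39 ± 0.17 and -0.44 ± 0.17 (adjusted p = 0.616 and 0.408). Over all 10 nM patterns the difference was -0.40 ± 0.14 (adjusted p = 0.137) and under tonic 10 nM -0.57 ± 0.17 (adjusted p = 0.0562).

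Of the other complex II subunits Sdhc passed in 1 comparison with unstimulated cells and Sdhb and Sdhd in none. Sdhb, the iron-sulfur subunit whose promoter is printed above, was 19700 and 19500 in unstimulated cells and ran from 15600 to 27400 at 100 nM, on both sides of them. Its difference over all 100 nM patterns was -0.01 ± 0.17 (adjusted p = 0.988). Sdhc, a membrane anchor, was 12000 and 9830 in unstimulated cells and 6870 and 8650 after 8 pulses at 100 nM, below both. It fell after 8 pulses by 0.48 ± 0.16 (adjusted p = 0.0472), a call lost under 19 of 28 settings, among them leaving out its own A array (difference -0.32, adjusted p = 0.318) or unstimulated A (-0.34, adjusted p = 0.295). Sdhd, the other anchor, differed by 0.05 ± 0.11 over all 100 nM patterns (adjusted p = 0.804).

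In complex III the core protein Uqcrc1 fell with 100 nM GnRH. Its signal was 12500 and 15100 in unstimulated cells and, at 100 nM, 11600 and 12900 after 1 pulse, 9510 and 11600 after 2, 6910 and 6410 after 4, 4450 and 9970 after 8, and 7200 and 10100 under tonic GnRH. At 10 nM it ran from 10900 to 18300. The arrays of 4 and 8 pulses and tonic GnRH at 100 nM, from 4450 to 10100, lay below both unstimulated arrays and below every 10 nM array. Uqcrc1 fell by 0.65 ± 0.20 over all 100 nM patterns (adjusted p = 0.0345), by 1.03 ± 0.26 after 4 pulses (adjusted p = 0.0129) and by 1.02 ± 0.26 after 8 (adjusted p = 0.012). The difference under tonic 100 nM was -0.68 ± 0.26 (adjusted p = 0.0694). The call over all patterns was lost under 9 of 28 settings, unstimulated A (adjusted p = 0.0965) or D (0.311) or the 3 arrays of high Gapdh ratio (0.0778) left out among them. That after 4 pulses was lost without its own D array (0.119) or unstimulated D (0.111), and that after 8 without its own A array (difference -0.45, adjusted p = 0.226), the array of highest Gapdh ratio, or unstimulated D (0.106). Uqcrc2, the other core protein, ran from 11500 to 23300 at 100 nM against 19500 and 24400, and its difference over all 100 nM patterns was -0.41 ± 0.17 (adjusted p = 0.122). Cyc1, cytochrome c1, differed under tonic 100 nM by 0.44 ± 0.16 on 162469_r_at (adjusted p = 0.0509) and by 0.08 ± 0.20 on 95072_at (adjusted p = 0.805). Uqcrq, a small subunit, differed by 0.31 ± 0.17 over all 100 nM patterns (adjusted p = 0.252).

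**Figure D3:**
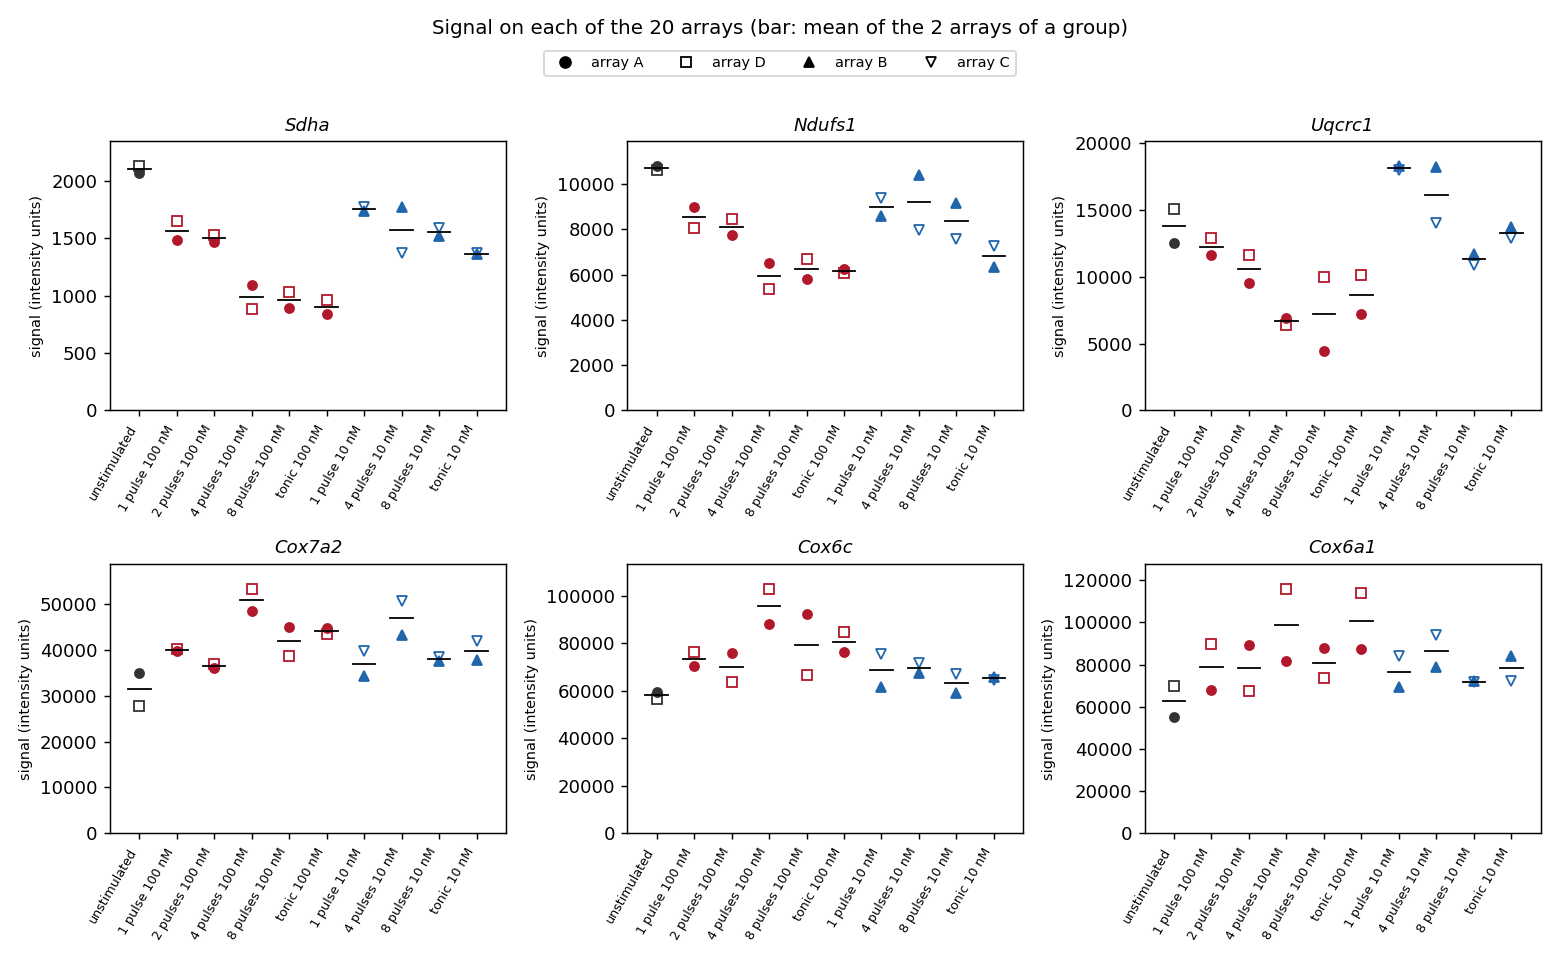
Signal in intensity units on each of the 20 arrays for 6 probe sets, by group, with the letter of the array as symbol and a bar at the mean of 2 arrays. Sdha, Ndufs1 and Uqcrc1 are lowest after 4 or 8 pulses or tonic GnRH at 100 nM, and Cox7a2 and Cox6c lie above both unstimulated arrays on all 10 arrays at 100 nM.

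Complex IV, cytochrome c oxidase, held both rises over all 100 nM patterns, those of the small structural subunits Cox7a2 and Cox6c. The Cox7a2 signal was 35000 and 27800 in unstimulated cells and, at 100 nM, 39800 and 40200 after 1 pulse, 36100 and 36800 after 2, 48400 and 53300 after 4, 44900 and 38700 after 8, and 44800 and 43400 under tonic GnRH. At 10 nM it ran from 34200 to 50700. All 10 arrays at 100 nM lay above both unstimulated arrays, and at 10 nM 7 of 8 did. Cox7a2 rose by 0.44 ± 0.12 over all 100 nM patterns (1.35-fold, adjusted p = 0.0165), by 0.70 ± 0.15 after 4 pulses (adjusted p = 0.00552) and by 0.50 ± 0.15 under tonic GnRH (adjusted p = 0.0247). With quantile normalisation these rises were 0.17, 0.32 and 0.14 and none passed (adjusted p = 0.319, 0.138 and 0.508). The call over all patterns was also lost without unstimulated D (adjusted p = 0.337) and without the 3 arrays of high Gapdh ratio (difference 0.34, adjusted p = 0.0734), that after 4 pulses without its own D array (0.0749) or unstimulated D (0.0876), and that under tonic GnRH without either of its own arrays (0.108 and 0.08) or unstimulated D (0.243).

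Cox6c (100550_f_at) was 59600 and 56500 in unstimulated cells and, at 100 nM, 70300 and 76400 after 1 pulse, 75900 and 63800 after 2, 88100 and 103000 after 4, 92400 and 66500 after 8, and 76500 and 84600 under tonic GnRH. At 10 nM it ran from 59000 to 75700. All 10 arrays at 100 nM were above both unstimulated arrays. It rose by 0.44 ± 0.13 over all 100 nM patterns (1.36-fold, adjusted p = 0.0285) and by 0.71 ± 0.17 after 4 pulses (adjusted p = 0.00894). With quantile normalisation the rise over all patterns was 0.06 (adjusted p = 0.732) and that after 4 pulses 0.19 (adjusted p = 0.315). Without unstimulated A or D the adjusted p over all patterns was 0.128 or 0.233, and without the 3 arrays of high Gapdh ratio it was 0.0983 (difference 0.32). After 4 pulses it was 0.0715 without unstimulated D and 0.121 without the own D array. The suffix _f marks probes shared within a gene family, so its signal may not be Cox6c alone. In addition, 2 further Cox6c probe sets (44.8 to 361) were under the filter. The same limit of shared probes holds below for Cox6a1, read on 99631_f_at, and for Cox4i1 on 102124_f_at.

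Cox6a1, the subunit 6A of most tissues, was 55200 and 70000 in unstimulated cells, 81500 and 116000 after 4 pulses and 87200 and 114000 under tonic 100 nM, above both. It rose by 0.64 ± 0.21 after 4 pulses (adjusted p = 0.0477) and by 0.68 ± 0.21 under tonic GnRH (adjusted p = 0.028), and with quantile normalisation by 0.11 and 0.15 (adjusted p = 0.475 and 0.28). The first call was lost under 16 of 27 settings, and the other without unstimulated A (0.211) or tonic D (0.223). Cox4i1, the common form of subunit 4, rose after 4 pulses on 102124_f_at by 0.61 ± 0.18 (6140 and 6650 to 8430 and 11400, adjusted p = 0.0331) and differed on 93788_at by -0.12 ± 0.30 (adjusted p = 0.84), so its probe sets disagree. The first was lost under 5 of 27 settings, with adjusted p = 0.355 without the own D array and 0.141 and 0.0998 without unstimulated A and D. Cox6a2, the heart and skeletal muscle form of subunit 6A, was 712 and 1020 in unstimulated cells and 1780 and 1590 under tonic 10 nM, well apart. It rose there by 0.86 ± 0.23 (1.81-fold, adjusted p = 0.0328), a call lost without unstimulated A (0.263), tonic B (0.208) or tonic C (0.0822). At tonic 100 nM it was 1430 and 1400, a difference of 0.63 ± 0.23 (adjusted p = 0.0656).

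In complex V no probe set passed over all 100 nM patterns, and Atp5md and Atp5k, small membrane subunits of the ATP synthase, rose after 4 pulses. Atp5md was read on 95718_f_at, whose suffix marks probes shared within a gene family, so the signal may not be Atp5md alone. Atp5md was 48900 and 38200 in unstimulated cells, 67300 and 90000 after 4 pulses at 100 nM and 59300 and 83100 under tonic 100 nM, and all 10 arrays at 100 nM were above both unstimulated arrays (52600 to 90000). It rose by 0.85 ± 0.24 after 4 pulses (adjusted p = 0.0264) and by 0.70 ± 0.24 under tonic GnRH (adjusted p = 0.0496), and the difference over all 100 nM patterns was 0.56 ± 0.19 (adjusted p = 0.0542). With quantile normalisation the 4 pulse and tonic rises were 0.32 and 0.21 (adjusted p = 0.315 and 0.495). The 4 pulse call was lost without its own D array (0.261) or unstimulated D (0.201), and the tonic call under 14 of 28 settings. Atp5k was 4550 and 3220 in unstimulated cells and 6860 and 6470 after 4 pulses, above both. It rose by 0.77 ± 0.19 (adjusted p = 0.0113), a call kept under both other scalings and lost without the own A (0.0518) or D array (0.0771) or unstimulated D (0.16). The other 19 tested probe sets of complex V, those of the alpha subunit Atp5a1 and the central stalk subunits Atp5c1, Atp5d and Atp5e among them, were not called in any comparison with unstimulated cells. Atp5l, a membrane subunit, differed over all 100 nM patterns by 0.28 on 93014_at (adjusted p = 0.179).

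Between doses, over the 4 patterns given at both, 17 respiratory chain probe sets were lower and 1 was higher at 100 nM than at 10 nM. This is 22.0% of the 82 beside 23.6% of all probe sets, of which 12.7% of all were lower and 10.9% higher. The lower ones were 11 of 35 in complex I, 3 of 4 in complex II, 2 of 9 in complex III and 1 of 21 in complex V, and the one higher was Cox6c of complex IV, where 1 of 13 was called. Uqcrc1 was 4450 to 12900 over the 100 nM arrays and 10900 to 18300 over the 10 nM arrays, a difference of -0.79 ± 0.13 (adjusted p = 0.000357). Ndufv3, a small subunit at the NADH-oxidising end of complex I, was 5370 to 10300 against 10100 to 14200, a difference of -0.66 ± 0.13 (adjusted p = 0.00144). Sdha differed by -0.47 ± 0.09 (adjusted p = 0.00102). The 100 and 10 nM ranges overlapped for all 3, for Sdha between 1360 and 1650. Ndufv1, the flavin subunit that takes electrons from NADH, was lower by 0.49 ± 0.11, Ndufs3 by 0.48 ± 0.11, Sdhc by 0.38 ± 0.08, Uqcr11 by 0.37 ± 0.09 and Sdhb by 0.34 ± 0.11. Ndufs4 (difference -0.47) and Atp5d on 161145_f_at (-0.31, 1 of its 5 probe sets) passed as well, and Cox6c was higher by 0.29 ± 0.08 (adjusted p = 0.0168). The median Ndufs4 signal was 269 over all 100 nM arrays (83.6 to 488, 2 pulses included) and 371 over the 10 nM arrays (256 to 592). These medians were under the filter value of 427, so the Ndufs4 call rests on low signals and the size of its difference is uncertain. Ndufs4 passed that value only at 570 and 592 at 10 nM and at 488 after 2 pulses at 100 nM, a group outside this comparison. Among the arrays compared, the filter was thus met only at the dose of higher signal, and the call carries little weight. The calls of Sdhb, Atp5d, Cox6c and Ndufs4 were lost under 11, 14 and 4 of 28 settings and 2 of 27, single arrays left out among them. The setting without the 3 arrays of high Gapdh ratio leaves out 4 pulses at both doses, so it compares 1 and 8 pulses and tonic GnRH only. Without the 3 arrays of high Gapdh ratio only Uqcrc1, Ndufv3 and Sdha passed, 3 of 82 beside 8.11% of all.

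With pulse number at 100 nM, 4 probe sets fell per doubling of pulses and 0 rose (6.89% of all called, 3.67% higher and 3.22% lower). RNA was taken at one time, so more pulses also means a shorter time since the last one. Uqcrc1 fell by 0.32 ± 0.08 per doubling (adjusted p = 0.0219), Sdha by 0.24 ± 0.06 (adjusted p = 0.0127), Sdhc by 0.22 ± 0.05 (adjusted p = 0.0113) and Ndufs1 by 0.18 ± 0.05 (adjusted p = 0.048). Of the others, Cox6a2 had a slope of 0.20 ± 0.07 (adjusted p = 0.117) and Atp5d (161145_f_at) one of 0.15 (adjusted p = 0.215). The Ndufs1 call was lost under 21 of 28 settings, 17 of them a single array left out. The count was 0 without the A array of 8 pulses, 2 and 1 without the A and D arrays of 1 pulse, and 0 without the 3 arrays of high Gapdh ratio. At 10 nM limma called 0 (2.1% of all, 3 at an unadjusted p under 0.05 beside 1217 of 8491), and the slope of Sdha there was -0.06 ± 0.06. The difference in slope between doses was called for 0 of the 82 (0.0118% of all, 3 at an unadjusted p under 0.05 beside 410 of 8491). Tonic GnRH and 8 pulses differed for 0 at 100 nM (0.0118% of all, 2 at an unadjusted p under 0.05 beside 328 of 8491). At 10 nM they differed for 0 (0% of all, 0 at an unadjusted p under 0.05 beside 220 of 8491). Their difference between doses was called for 0 as well (0% of all, 1 at an unadjusted p under 0.05 beside 181 of 8491). The smallest p of each complex at 100 nM belonged to Ndufa10 (0.44), Sdhd (0.29), Cyc1 on 162469_r_at (0.34), Cox4i1 on 93788_at (0.59) and Atp5g2 on 102134_f_at (-0.21), each with an adjusted p of 0.997.

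Genes that feed, build or accompany the chain are given for the same comparisons. Their values come from the main fit only. The alternatives were not examined for these genes, here and in the next paragraph, so whether their calls would be kept is not known. Of 25 tested probe sets of the citric acid cycle and pyruvate dehydrogenase, 3 fell and 0 rose over all 100 nM patterns (14.2% of all called), with a median of -0.31 against -0.05. They were 1 probe set each of Dlst (-0.68 ± 0.20, with -0.17 ± 0.13 on its other, uncalled), a subunit of the 2-oxoglutarate dehydrogenase, Dlat (-0.44 ± 0.13, with -0.31 ± 0.23 on its other, uncalled), of pyruvate dehydrogenase, and Cs (-0.38 ± 0.12), citrate synthase. Under tonic 100 nM 7 fell (11.8% of all), Idh2, a mitochondrial isocitrate dehydrogenase, by 1.32 ± 0.39. Between doses 7 of the 25 were lower at 100 nM (12.7% of all) and 0 were higher (10.9%). Of 17 probe sets of electron carriers and assembly factors 3 fell and 1 rose over all 100 nM patterns (7.84% of all fell, 6.37% rose). Etfdh (-0.61 ± 0.16), Coq9 (-0.51 ± 0.13) and Lrpprc (-0.47 ± 0.14) fell, and 1 of Etfb rose (0.50 ± 0.16, with -0.09 ± 0.19 on its other). Lrpprc, which stabilises mitochondrial mRNAs, also fell over all 10 nM patterns (-0.60 ± 0.14), 1 of the 17 beside 1.91% of all called. Between doses 6 of the 17 were lower at 100 nM (12.7% of all) and 1 was higher (10.9%).

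Of 68 probe sets of mitochondrial ribosomal proteins, which translate the subunits encoded in the organelle, 7 fell and 0 rose over all 100 nM patterns (7.84% of all fell), 15 fell under tonic 100 nM (11.8%) and 26 were lower at 100 than at 10 nM (12.7%). Mrps34 had differences of -0.65 ± 0.14, -1.0 ± 0.18 and -0.79 ± 0.09 in these. Among 7 antioxidant genes Prdx3 (-0.998 ± 0.17), Nnt (-0.68 ± 0.16) and Txnrd2 (-0.57 ± 0.16) fell over all 100 nM patterns (7.84% of all). Of 20 probe sets of mitochondrial import 3 rose and 0 fell over all 100 nM patterns (6.37% of all rose). They were Timm8a1 (0.59 ± 0.12), Timm8b (0.52 ± 0.14) and Hspa9 (0.35 ± 0.11), which carry or fold incoming proteins. At 100 against 10 nM 4 import probe sets were higher (10.9% of all) and 3 lower (12.7%), and 3 of the 7 antioxidant genes were lower. Of 15 probe sets of inner membrane carriers and uncoupling proteins 2 fell under tonic 100 nM (11.8% of all), and the median over all 100 nM patterns was -0.16. After 4 pulses at 100 nM 3 of these 15 fell (8.72% of all) and 1 rose (6.22%), and 7 were lower at 100 than at 10 nM (12.7%). Among 18 probe sets of regulators of mitochondrial biogenesis Sirt3, a deacetylase, fell (-0.54 ± 0.15) and 0 rose over all 100 nM patterns (7.84% of all fell). At 100 against 10 nM 4 regulators were higher (10.9% of all), Pprc1 (0.41), Tfb2m (0.38), Polg (0.36) and Gabpb1 on 1 of its 2 probe sets (0.31). On the other the difference between doses was -0.02, and it fell by 0.93 ± 0.24 after 4 pulses at 100 nM (adjusted p = 0.0145).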

How the data were processed

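The deposited table holds MAS5 signal intensity values of 12488 probe sets on 20 Affymetrix arrays, computed and scaled by the authors (MAS5 per the submitters' processing notes, with version, probe definition and scaling target not given in the sources used here). Of these, 66 probe sets were controls and left out, and 8491 probe sets above a signal of 427 (40th percentile) on at least 2 arrays were tested. Group means of log2(signal + 166.8), the constant being the 25th percentile, were fitted over all 20 arrays with limma 3.58.1 in R 4.3.3 (eBayes with intensity trend, residual df 10, two-sided). P-values were Benjamini-Hochberg adjusted over all tested probe sets, with a threshold of 0.05. The fit was tested on simulated data. Genes came from the platform annotation, where 10833 probe sets have 1 symbol, 396 several and 1193 none listed.

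Members and gene lists were chosen with earlier results of these data known. Named were, per complex and comparison, up to 4 called probe sets of largest difference, or the one of smallest p where none was called, and the one of highest mean signal, and further probe sets of those genes. Probe sets called in single pulse patterns, and roles of genes, were added after their values were seen. Arrays sharing a letter were checked for pairing by the correlation of deviations from group means. It was over 0.1 in 6 of 6 pairs of groups for B and C (0.13 to 0.345) and in 14 of 15 for A and D (0.0797 to 0.32). All were positive, so arrays of one letter shared part of their deviations. The main fit nevertheless left the letter out, for both pairs of letters, so its standard errors ignore what arrays of one letter share. With the letter as a block more probe sets passed, and those counts are given as an alternative. Alternatives were other scalings, filters, constants and groupings, a letter block and single arrays left out. Promoters come from a RefSeq table (GRCm38.p6).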

Additional observations from a re-analysis of the deposited data

How the results depend on the processing

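With the letter as a replicate block, more of the 82 and more of all probe sets passed: 12 over all 100 nM patterns (22% of all), 3 over all 10 nM patterns (8.23%), 21 after 4 pulses (23.1%), 10 after 8 pulses (21.7%) and 16 under tonic 100 nM (28.6%), 3 after 4 pulses (1.45%) and 4 under tonic 10 nM (14%), and 7 in the 100 nM trend (13%). With groups from the contradicting label field 0 passed in any of these, in the 100 nM trend or between doses, and differences turned: over all 100 nM patterns Ndufaf1 was 0.056, Uqcrc1 0.063, Cox6c -0.055 and Cox7a2 -0.12, and under tonic 100 nM Ndufs1 was 0.00030, Ndufaf1 0.10, Cox6a1 -0.062, Cox7a2 -0.25 and Atp5md -0.42. Without the 3 arrays of high Gapdh ratio, chosen after seeing the data, counts were 3 over all 100 nM patterns (11.5% of all), 2 after 8 pulses (8.55%), 0 in the trend (2.99%) and 3 between doses (8.11%). With equal array medians they were 3 after 8 pulses (11.8%), 1 under tonic 10 nM (5.85%) and 1 in the trend (5.29%), with quantile normalisation 14 under tonic 100 nM (18.8%), without the intensity trend 5 there (19%), and without shared-probe sets 7 of 55 after 4 pulses. Leaving out 1 array gave 1 to 8 over all 100 nM patterns, 1 to 12 after 4 pulses, 1 to 7 after 8, 3 to 11 under tonic 100 nM, 0 to 1 after 4 pulses at 10 nM, 0 to 3 under tonic 10 nM, 0 to 5 in the trend and 12 to 21 between doses. Shares of all probe sets are not given for the fits with 1 array left out, so those ranges cannot be read as particular to the chain. Without the arrays of high Gapdh ratio, the pooled 100 nM comparison, the trend and the comparison of doses also lacked the 4 pulse group. The causes were not tested beyond what each alternative's construction gives. With 2 arrays a group, small differences cannot be resolved.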
